A study of Mus musculus with 9 samples.

Results

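The 9 genes described here encode core components of Hedgehog signalling: the ligands Ihh and Shh, the receptors and coreceptor Ptch1, Smo and Boc, the transcription factors Gli1, Gli2 and Gli3, and the ligand-binding inhibitor Hhip. They were chosen by symbol from the 21873 genes of a liver FPKM table, and each of the 9 symbols matched 1 row. There were 3 control, 3 TAA and 3 recovery libraries, each from the liver of 1 mouse. All were male C57BL/6 mice, 8 weeks old at the first injection. Thioacetamide (TAA), a compound that damages hepatocytes, was given by intraperitoneal injection (200 mg/kg, once in 3 days) over 8 weeks to the TAA and recovery groups, and control mice received saline. Liver was collected from control and TAA mice 72 h after the last injection. Recovery mice were kept for another 8 weeks without injections, so they were 8 weeks older when the liver was taken, and control mice of matching age were not analysed here.

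Hedgehog ligands bind Ptch1, a membrane protein that otherwise holds Smo inactive. When Ptch1 is bound, Smo accumulates in the primary cilium and signals to the Gli transcription factors, of which Gli1 is mainly an activator and Gli3 is often cut to a repressor. Ptch1, Gli1 and Hhip are themselves known targets of the pathway, and Ptch1 and Hhip limit it by binding ligand. In the liver the pathway is weakly active in health and is known for its activity in ductular cells and in myofibroblasts after injury.

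Values are FPKM (fragments per kilobase of transcript per M mapped fragments) divided by 1 scaling factor per library, and are called scaled FPKM. Because FPKM is per length, levels of different genes can be set side by side. A depth of 26.9 to 40.6 M fragments per library was estimated from the steps between the lowest values. Fold changes are differences of log2(scaled FPKM + 0.1), where the 0.1 draws low genes towards 0, and DEGs had an adjusted p (limma, Benjamini-Hochberg over all tested genes) under 0.05 and a fold change of at least 2. Of the 9 genes, 6 had the mean FPKM of at least 0.1 needed for the test (Ihh, Ptch1, Smo, Gli3, Hhip and Boc), as did 14094 genes in all. Shh, Gli1 and Gli2 had a mean FPKM of 0.0156, 0.0332 and 0.0274 and were not tested. With 1 library per mouse, p-values measure the spread between mice and library preparation together.

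The labelled tissue was checked against its markers. Alb, the main hepatocyte secretory protein, reached 28300 ± 1850 scaled FPKM (SD, n = 3) in control mice, 20500 ± 2960 in TAA mice and 35100 ± 1410 in recovery mice. Marker genes of other tissues were high in single libraries. The summed scaled FPKM of 8 skeletal muscle genes reached 40.3 in TAA 3 and was at most 0.426 in control mice, where 7 of the 8 were at 0. The adrenal genes Cyp11a1 and Hsd3b1 had 0.618 and 1.73 in recovery 3. Cyp21a1 of the same list was also high in all TAA mice, with 3.07, 4.09 and 5.99, against 1.13 in recovery 3 and at most 0.158 in the other recovery and control mice. Fits without TAA 3 or recovery 3 are therefore also given for Ihh, Boc and the fall of Gli3, and not for the other genes.

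RefSeq promoters (GRCm38.p6) matched 6 of the 9 genes (Ihh, Ptch1, Smo, Gli2, Gli3 and Hhip). Bases before the RefSeq start are shown for Ihh and Smo, whose RNA was higher in TAA mice, and for Hhip, whose RNA was lower, so that the opposite movers can be set side by side. The regions are chr1:74951673-74951922 (minus strand) for Ihh, chr6:29735247-29735425 (plus strand) for Smo and chr8:80058009-80058258 (minus strand) for Hhip, written 5′ to 3′ on the gene's strand with each CG dinucleotide in capitals. The windows for Ihh and Hhip are the 250 bases before the start, and that for Smo ends 71 bases earlier, where the Smo locus of the deposited table begins.
Ihh: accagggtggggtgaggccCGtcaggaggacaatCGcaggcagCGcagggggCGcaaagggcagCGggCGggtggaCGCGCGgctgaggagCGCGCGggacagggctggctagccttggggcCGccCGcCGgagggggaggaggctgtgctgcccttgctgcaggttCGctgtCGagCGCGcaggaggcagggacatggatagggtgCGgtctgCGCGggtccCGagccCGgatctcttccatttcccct
Smo: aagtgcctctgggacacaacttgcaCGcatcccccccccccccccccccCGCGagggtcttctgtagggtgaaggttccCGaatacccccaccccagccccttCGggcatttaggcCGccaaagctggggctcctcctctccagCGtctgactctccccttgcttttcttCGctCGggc
Hhip: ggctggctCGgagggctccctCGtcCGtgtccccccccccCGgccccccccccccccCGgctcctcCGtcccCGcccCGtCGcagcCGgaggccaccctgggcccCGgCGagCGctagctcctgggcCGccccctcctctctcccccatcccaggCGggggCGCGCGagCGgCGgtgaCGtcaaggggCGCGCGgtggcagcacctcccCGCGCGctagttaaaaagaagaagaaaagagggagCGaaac
Over the full 250 bases all 3 were rich in CG dinucleotides, with 24 in Ihh, 15 in Smo and 28 in Hhip, against a median of 6 over 32851 promoters. At least as many as in Smo were found in 27.3% of promoters. The consensus site of Gli factors, GACCACCCA, was searched for on both strands (reverse complement TGGGTGGTC) from 250 bases before to 50 bases after the start. None of the 6 promoters held an exact match, and 0.253% of all promoters did. With a share this low, the lack of a match in 6 promoters says little about any of these genes. The searched windows of Ptch1 and Gli3 lie inside their loci in the deposited table, so they do not cover the bases before those loci. The closest stretch in the Ihh, Smo and Hhip windows had 2 mismatches.

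The order of the members in control liver placed the receptors and the inhibitor first. Ptch1 was highest, followed by Smo, Hhip and Ihh, and the ranges of these neighbours did not overlap. Gli3 and Boc came next with overlapping ranges, and Shh, Gli2 and Gli1 were lowest, also with overlapping ranges. In the TAA group Smo and Ptch1 overlapped at the top, and Hhip dropped below Ihh, Boc and Gli3. In the recovery group the first 6 places were again those of the control group. The plot of the values by mouse shows these levels.

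**Figure D1:**
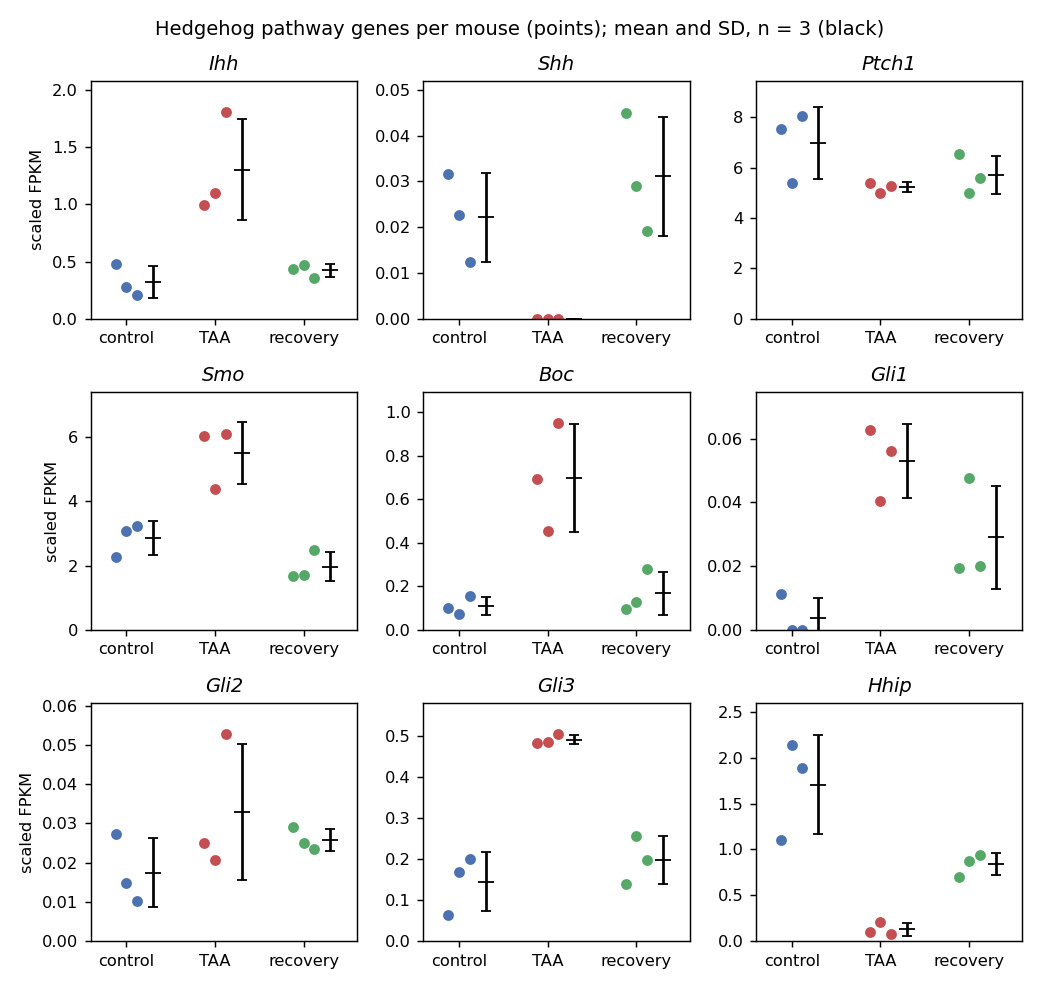
Scaled FPKM of the 9 Hedgehog genes on linear axes from 0, with 1 point per mouse and, in black, the mean with its SD (n = 3 per group). Ihh, Smo, Boc, Gli1 and Gli3 were higher in every TAA mouse than in every control mouse, Hhip was lower in every TAA mouse, and Shh was at 0 in the TAA mice.

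Among the ligands, Ihh rose in the fibrotic liver and fell again in recovery mice. Ihh (Indian hedgehog, ENSMUSG00000006538, mm10 chromosome 1, 74945315 to 74951672, minus strand) had a scaled FPKM of 0.476, 0.277 and 0.204 in the control mice, 0.998, 1.1 and 1.81 in the TAA mice and 0.433, 0.474 and 0.36 in the recovery mice. All TAA mice were above all other mice, and the control and recovery groups overlapped. The log2 fold change of TAA mice against control mice was 1.75 (standard error 0.31, adjusted p = 0.00238, limma), a 3.36-fold rise. The recovery group was 2.62-fold lower than the TAA group, with a log2 fold change of -1.39 (standard error 0.24, adjusted p = 0.00232). TAA 3 was highest, and without it the rise had a log2 fold change of 1.504 (adjusted p = 0.0102) and the fall one of -1.14 (adjusted p = 0.00591).

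Shh (Sonic hedgehog, ENSMUSG00000002633, chromosome 5, 28456815 to 28467256, minus strand) was close to the limit of detection. Its scaled FPKM was 0.0317, 0.0226 and 0.0123 in the control mice, it was listed at 0 in the 3 TAA mice, and it was 0.045, 0.0291 and 0.0192 in the recovery mice. These values correspond to about 5 fragments over the control libraries and 9 over the recovery libraries. The TAA mice were thus below both other groups, but no fold is given against a group at 0. Exons of Shh overlap 9530036O11Rik and Gm26894 on the other strand, and the library kit does not mark strand, so reads of these genes cannot be told apart there. Dhh, the remaining mammalian ligand gene, had 0.0883 ± 0.0685 in control mice, 0.132 ± 0.036 in TAA mice and 0.0628 ± 0.0127 in recovery mice (SD, n = 3), with an adjusted p of 0.409 for TAA mice against control mice (limma).

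The ligand-binding receptor Ptch1 moved least of the 6 tested members. Ptch1 (ENSMUSG00000021466, chromosome 13, 63508328 to 63573598, minus strand) had 7.54, 5.37 and 8.05 in the control mice, 5.39, 5.0 and 5.27 in the TAA mice and 6.53, 5.01 and 5.6 in the recovery mice. All 3 groups overlapped, and control 2 lay within the TAA range. The log2 fold change was -0.39 (standard error 0.16, adjusted p = 0.0702) for TAA mice against control mice and 0.12 (standard error 0.12, adjusted p = 0.442) for recovery mice against TAA mice. Without control 2 the first of these was -0.57 (adjusted p = 0.00749). Its sign depended on the scaling. With FPKM as deposited the log2 fold change was 0.23 (adjusted p = 0.227) for TAA mice against control mice, where the median of all tested genes also stood at 0.63 and no longer at 0.02. For recovery mice against TAA mice it was then -0.43 (adjusted p = 0.0167), with the median of all tested genes at -0.55.

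Smo, the seven-pass membrane protein that Ptch1 holds in check, was higher in TAA mice and lower again in recovery mice. Smo (ENSMUSG00000001761, chromosome 6, 29735426 to 29761365, plus strand) had a scaled FPKM of 2.26, 3.07 and 3.24 in the control mice, 6.04, 4.4 and 6.11 in the TAA mice and 1.69, 1.72 and 2.49 in the recovery mice. All TAA mice were above all other mice. The TAA group was 1.90-fold above the control group (log2 fold change 0.93, standard error 0.19, adjusted p = 0.0044), which missed the fold change required of DEGs and passed it without control 3 or TAA 2 (1.023 and 1.079), with FPKM as deposited (1.55, adjusted p = 0.000357) and with upper quartile scaling (1.236, adjusted p = 0.0014). The recovery group was 2.73-fold below the TAA group (log2 fold change -1.45, standard error 0.20, adjusted p = 0.000636). Against the control group the recovery group had a log2 fold change of -0.52 (standard error 0.21, adjusted p = 0.204), with overlapping ranges.

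Coreceptors present ligand to Ptch1, and they did not move as 1 group. Boc (ENSMUSG00000022687, chromosome 16, 44485049 to 44558897, minus strand) rose 3.73-fold, from 0.101, 0.0742 and 0.155 in the control mice to 0.695, 0.454 and 0.95 in the TAA mice (log2 fold change 1.90, standard error 0.29, adjusted p = 0.0012). The recovery mice had 0.0959, 0.127 and 0.281, a 3.01-fold fall (log2 fold change -1.59, standard error 0.34, adjusted p = 0.00567). The control and recovery groups overlapped except for recovery 3, the library with Cyp11a1 and Hsd3b1, which was above every control mouse. Without recovery 3 the fall had a log2 fold change of -1.87 (adjusted p = 0.00346), and without TAA 3, where Boc was highest, the rise had one of 1.68 (adjusted p = 0.00499). Cdon, the paralogous coreceptor, moved the same way, from 0.268 ± 0.0763 to 1.13 ± 0.176 and back to 0.427 ± 0.111 (SD, n = 3), with log2 fold changes of 1.75 (adjusted p = 0.000427) and -1.23 (adjusted p = 0.00217). Gas1, the third coreceptor, moved the other way, from 7.67 ± 1.35 to 3.02 ± 1.6 and back to 6.52 ± 1.28, with log2 fold changes of -1.45 (adjusted p = 0.0147) and 1.22 (adjusted p = 0.03).

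Of the Gli factors, Gli3 alone was high enough to test, and it rose and fell with the group. Gli3 (ENSMUSG00000021318, chromosome 13, 15463235 to 15730026, plus strand) had 0.0635, 0.168 and 0.201 in the control mice, 0.483, 0.486 and 0.505 in the TAA mice and 0.14, 0.256 and 0.198 in the recovery mice. The TAA mice lay close together and above all other mice. The TAA group was 2.5-fold higher than the control group (log2 fold change 1.32, standard error 0.27, adjusted p = 0.00463), and the recovery group was 2.01-fold lower than the TAA group (log2 fold change -1.01, standard error 0.22, adjusted p = 0.00641). The fall lay at the fold change required of DEGs and was under it without TAA 3 (-0.99) or recovery 1 (-0.86). With quantile normalization neither difference passed the test, with 0.37 (adjusted p = 0.254) and -0.24 (adjusted p = 0.358).

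Gli1 (ENSMUSG00000025407, chromosome 10, 127329882 to 127341974, minus strand) had a scaled FPKM of 0.0111, 0 and 0 in the control mice, 0.0626, 0.0403 and 0.0561 in the TAA mice and 0.0195, 0.0477 and 0.0199 in the recovery mice. All TAA and recovery mice were above all control mice, and the TAA and recovery groups overlapped. In estimated fragments the TAA libraries held 13.2, 8.4 and 12.1, the recovery libraries 2.5, 7 and 3, and the control libraries a single fragment, in control 1. On rounded fragment numbers the TAA group was 17.7 times the control group, with an exact 95% interval of 2.97 to 720.0, and the recovery group was 0.529 times the TAA group, with an interval of 0.25 to 1.05. These intervals cover counting error only. In a fit without the filter and with 0.01 added, chosen after the data were seen, Gli1 had a log2 fold change of 2.28 (standard error 0.37, adjusted p = 0.00499) for TAA mice against control mice and -0.75 (standard error 0.36, adjusted p = 0.149) in recovery mice against TAA mice. In that fit, 24.2% of genes passed the criteria for TAA mice against control mice and 21.3% for recovery mice against TAA mice. Shh, with at most 4 estimated fragments in a library, passed them too. It was lower in TAA mice than in control mice (limma, adjusted p = 0.00503) and higher in recovery mice than in TAA mice (adjusted p = 0.00321). Gli2 passed in neither comparison (adjusted p = 0.244 and 0.675). Exons of Gli1 overlap those of Arhgap9 on the other strand over 186 bases. Arhgap9 had 1.2 ± 0.211 in control mice, 1.81 ± 0.273 in TAA mice and 1.35 ± 0.399 in recovery mice (SD, n = 3), and its part in the Gli1 values was not tested.

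Gli2 (ENSMUSG00000048402, chromosome 1, 118834132 to 119053619, minus strand) had 0.0272, 0.0149 and 0.0102 in the control mice, 0.0251, 0.0207 and 0.0529 in the TAA mice and 0.029, 0.025 and 0.0235 in the recovery mice. The 3 groups overlapped, and the highest value was that of TAA 3, the library with skeletal muscle genes. The estimated fragments summed to 9 in control mice, 34.4 in TAA mice and 17.8 in recovery mice. A difference was not detectable at this depth, with a ratio of the TAA group to the control group of 1.97 and an exact 95% interval of 0.924 to 4.66.

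The inhibitor Hhip, a membrane-anchored protein that binds Hedgehog ligands, was the member with the largest change among the 6 tested and the only one of them that fell in TAA mice by the criteria used. Hhip (ENSMUSG00000064325, chromosome 8, 79965851 to 80058006, minus strand) had 1.1, 2.14 and 1.89 in the control mice, 0.1, 0.204 and 0.0715 in the TAA mice and 0.703, 0.875 and 0.937 in the recovery mice. None of the 3 groups overlapped. Its exons share bases with Gm27820 on the other strand, as those of Gli3 do with Gm6556. The TAA group was 8.01-fold below the control group (log2 fold change -3.00, standard error 0.32, adjusted p = 0.000191), and the recovery group was 4.27-fold above the TAA group (log2 fold change 2.09, standard error 0.27, adjusted p = 0.000474). The recovery group lay below the control group in every mouse, with a log2 fold change of -0.91 (standard error 0.26, adjusted p = 0.114), which did not pass the test.

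In all, 4 of the 6 tested members were DEGs for TAA mice against control mice (Ihh, Gli3 and Boc higher and Hhip lower), against 25.0% of all tested genes (17.0% higher and 8.02% lower). By the adjusted p alone 5 were counted, with Smo, against 54.5% of all tested genes. In recovery mice against TAA mice, 5 of the 6 were DEGs (Hhip higher and Ihh, Smo, Gli3 and Boc lower), against 21.4% of all tested genes. In recovery mice against control mice none of the 6 was a DEG in limma, against 0.993% of all tested genes. At an unadjusted p under 0.05 there were 2, Smo and Hhip, against 23.0% of all tested genes. The groups did not overlap for 5 of the 6 members in TAA mice against control mice (63.6% of all tested genes), for 5 in recovery mice against TAA mice (60.3%) and for Hhip alone in recovery mice against control mice (30.2%). The TAA libraries enter both of the first comparisons, so their values are given side by side and their opposite signs are not independent of each other.

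**Figure D2:**
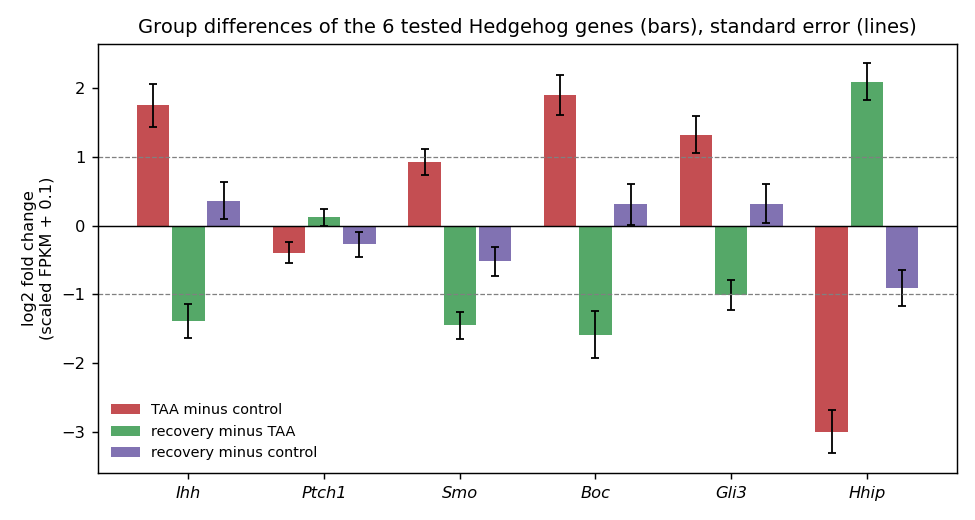
Log2 fold change on the scale of scaled FPKM + 0.1 (vertical axis) of the 6 tested Hedgehog genes in the 3 comparisons, with bars for the estimates, black lines for their standard errors and dashed lines at a fold change of 2. Ihh, Smo, Boc and Gli3 stand above 0 for TAA mice against control mice and below it in recovery mice against TAA mice, and Hhip does the opposite.

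How far each gene had returned was described by the part of the TAA difference that was left, as the recovery mean minus the control mean divided by the TAA mean minus the control mean, in percent. It was 10.5% for Ihh (4.14% to 15.7% over the recovery mice), 15.5% for Gli3 (-1.0% to 32.1%) and 9.88% for Boc (-2.39% to 29.1%). For Hhip 55.1% was left (48.9% to 63.6%). Smo lay beyond the control mean, at -33.5% (-43.7% to -13.9%). The ranges of Hhip and Smo thus stood apart from those of the other 3 genes. They vary the recovery mice alone and leave out the spread of the control and TAA groups. Against control mice neither gene passed the test, with an adjusted p of 0.204 for Smo and 0.114 for Hhip (limma). These shares divide by the change that also decided which genes were DEGs, and they carry no test.

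Ratios between members of the same library do not depend on the scaling factor, save through the added 0.1. Log2 ratios were compared with exact two-sided permutation tests, whose smallest possible p with 3 mice a group is 0.1, over 27 comparisons. The ratio of ligand to inhibitor, Ihh/Hhip, was -1.065, -2.571 and -2.711 in the control mice, 2.454, 1.977 and 3.479 in the TAA mice and -0.591, -0.765 and -1.173 in the recovery mice. Ihh was thus below Hhip in all control and recovery mice and above it in all TAA mice (exact p = 0.1, adjusted 0.142, for the TAA group against either other group). The ratio of Ptch1 to Smo was 1.698, 0.786 and 1.288 in the control mice, -0.16, 0.181 and -0.21 in the TAA mice and 1.887, 1.494 and 1.14 in the recovery mice. Ptch1 exceeded Smo in every control and recovery mouse, and the 2 genes were near the same level in the TAA mice (exact p = 0.1, adjusted 0.142).

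Pdgfrb, a receptor of stellate cells and myofibroblasts, was 1 of the 11 stellate cell and myofibroblast markers and was used as a reference. Its scaled FPKM was 1.7 ± 0.161 in control mice, 8.34 ± 1.84 in TAA mice and 2.8 ± 0.515 in recovery mice (SD, n = 3). Relative to Pdgfrb, Smo had a log2 ratio of 0.71 ± 0.14 in control mice, -0.58 ± 0.11 in TAA mice and -0.50 ± 0.095 in recovery mice. The ratio was lower in every TAA and recovery mouse than in every control mouse (exact p = 0.1, adjusted 0.142), while the level of Smo itself was higher in the TAA mice. The recovery group differed from the TAA group by 0.08 (exact p = 0.4). These ratios rest on the choice of Pdgfrb, whose log2 fold change for TAA mice against control mice was 2.21 (adjusted p = 6.1e-05, limma). Of the list, Col1a1 (5.91, adjusted p = 1.65e-06) and Col3a1 (4.95, adjusted p = 3.94e-06) changed more, and the median over the 11 markers was 1.48. The other markers changed less than Pdgfrb. The smallest changes were 0.80 for Reln (adjusted p = 0.00307) and 0.95 for Postn (adjusted p = 0.0656), close to the 0.93 of Smo. Ratios to markers other than Pdgfrb were not computed. The Ptch1 to Pdgfrb ratio was 1.96 ± 0.36, -0.64 ± 0.28 and 1.01 ± 0.37, without overlap between any groups. The Gli3 to Pdgfrb ratio was -2.92 ± 0.33, -3.81 ± 0.33 and -3.29 ± 0.30, where the TAA and recovery groups overlapped (exact p = 0.2).

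**Figure D3:**
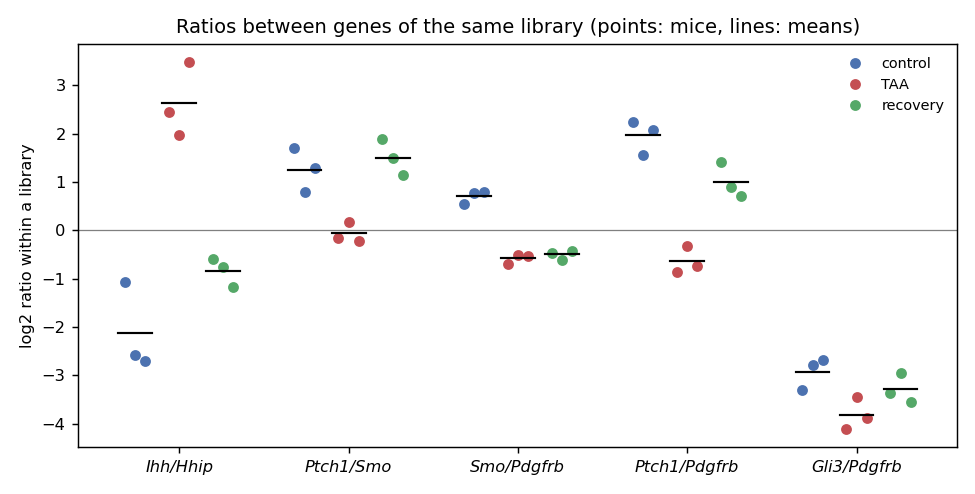
Log2 ratio between 2 genes of the same library (vertical axis, on scaled FPKM + 0.1), with 1 point per mouse and black lines for the group means. Ihh/Hhip is above 0 in the 3 TAA mice and below 0 in the other 6 mice, and Smo/Pdgfrb is lower in the TAA and recovery mice than in the control mice.

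The other genes of the pathway were counted by fixed lists, of which 101 genes are in the table and 90 were tested. In TAA mice set against control mice, 24 of the 90 were DEGs with higher expression (26.7%, against 17.0% of all tested genes) and 3 with lower expression (3.33%, against 8.02%), and their median log2 fold change was 0.49, against 0.02 for all tested genes. In recovery mice against TAA mice, 2 were higher (2.22%, against 7.12%) and 26 lower (28.9%, against 14.3%), with a median of -0.51 against -0.01. In recovery mice against control mice the 1 DEG was Mycn, lower at 0.168 ± 0.0304 against 0.46 ± 0.0882 (log2 fold change -1.06, adjusted p = 0.0462), and 0.582% of all tested genes were higher and 0.412% lower. The lists were described and not tested as sets. The filter used the mean over all 9 libraries, so some genes entered through their TAA values. Examples are Scube3 (0.0252 in control, 1.83 in TAA and 0.125 in recovery mice) and Jag2 (0.0795, 0.51 and 0.0649). Such genes could only be counted as higher in TAA mice, in these lists and among all tested genes.

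Genes that release, carry or modify ligand held the largest change of the 5 lists. Of 8 tested, 4 were DEGs that rose in TAA mice and 1 was a DEG that fell, against 17.0% and 8.02% of all tested genes. In recovery mice against TAA mice 5 DEGs fell, against 14.3%. Gpc3, a glypican that binds Hedgehog ligands, went from 0.275 ± 0.0601 to 10.8 ± 2.3 and back to 0.448 ± 0.425 (SD, n = 3), with a log2 fold change of 4.86 (adjusted p = 4.08e-06) and then -4.58 (adjusted p = 0.000186). Scube1, of a family of secreted proteins that help ligand leave the cell, rose by 4.52 on the log2 scale (adjusted p = 4.73e-05), Scube3 by 3.87 (adjusted p = 5.94e-05). Disp1, the transporter that releases lipidated ligand, had a log2 fold change of 1.26 (adjusted p = 0.00359) and then -1.07 (adjusted p = 0.0236). Hhat, which attaches the palmitate to ligands, was at 0.658 ± 0.171 in control mice, 0.89 ± 0.109 in TAA mice and 0.341 ± 0.0282 in recovery mice, and it was a DEG in recovery mice against TAA mice (log2 fold change -1.16, adjusted p = 0.00124). Notum, a secreted enzyme that removes lipid from Wnt ligands and acts on glypicans, fell by 1.54 in TAA mice (adjusted p = 0.000428).

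Between Smo and the Gli factors, 5 of 33 tested genes were DEGs for TAA mice against control mice, against 25.0% of all tested genes, and 18 passed the adjusted p alone, against 54.5%. Of the DEGs, 4 rose and 1 fell in TAA mice, and the median log2 fold change of the 33 was -0.017. In recovery mice against TAA mice 1 DEG rose and 4 fell, against 7.12% and 14.3% of all tested genes. The 4 that rose were Evc2 (1.92, adjusted p = 0.00156) and Evc (1.51, adjusted p = 0.00874), which form a complex at the base of the cilium with Smo, Efcab7 (1.31, adjusted p = 0.00273), which tethers that complex, and Stk36 (1.68, adjusted p = 0.00299), a kinase homologous to fly Fused. All 4 fell again in recovery mice. Dyrk2, a kinase that acts on Gli proteins, was the gene that fell (-1.04, adjusted p = 4.77e-05) and rose again (1.09, adjusted p = 7.79e-05). The Gli-binding inhibitor Sufu had 1.78 ± 0.104 in control mice, 2.71 ± 0.615 in TAA mice and 1.52 ± 0.389 in recovery mice (SD, n = 3). It was higher in every TAA mouse than in every other mouse. Its log2 fold changes were 0.56 (adjusted p = 0.0283, limma) for TAA mice against control mice and -0.80 (adjusted p = 0.0188) for recovery mice against TAA mice. Both were under the required fold change, so Sufu was not a DEG in any comparison.

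Of 31 tested genes of the primary cilium, the organelle through which vertebrate Hedgehog signalling runs, 5 were DEGs that rose in TAA mice. That share was near the 17.0% of all tested genes, and no DEG fell. By the adjusted p alone 20 were counted, against 54.5% of all tested genes. Among these, Ift52 (-0.872, adjusted p = 0.000256), Arl13b (-0.774, adjusted p = 0.00497) and Ift20 (-0.415, adjusted p = 0.0076) were lower in TAA mice. In recovery mice against TAA mice 7 DEGs fell, against 14.3% of all tested genes. The median log2 fold changes of the 31 genes were 0.64 and -0.53. Tulp3, which brings receptors into the cilium, had the largest rise, from 0.385 ± 0.121 to 2.0 ± 0.183 (log2 fold change 2.13, adjusted p = 0.000142), and the intraflagellar transport gene Ift57 had a log2 fold change of 1.75 (adjusted p = 0.00387). Ift80 rose by 1.33 on the log2 scale (adjusted p = 0.00359) and then fell by 1.86 (adjusted p = 0.000275), to 0.563 ± 0.156 in recovery mice against 0.878 ± 0.355 in control mice.

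Among genes known as Hedgehog targets outside the 9 members, 10 of 16 tested were DEGs that rose in TAA mice, against 17.0% of all tested genes. No DEG fell. By the adjusted p alone 13 were counted, against 54.5% of all tested genes. Among these, Mycn was lower in TAA mice (log2 fold change -0.635, adjusted p = 0.0321, limma). In recovery mice against TAA mice 9 DEGs fell, against 14.3% of all tested genes. Spp1, which encodes osteopontin, went from 16.0 ± 2.14 to 325.0 ± 78.7 and back to 26.7 ± 4.39 (SD, n = 3). The cell cycle genes Ccnd1 and Foxm1 rose by 3.88 (adjusted p = 2.75e-06) and 3.34 (adjusted p = 3.52e-05) on the log2 scale, and Ccnd2 and Ccne1 were also DEGs. Many of these genes are known to respond to other pathways too, and Spp1 and Sox9 are also on the list of biliary markers. Among the members that are themselves known targets, Ptch1 was not a DEG, Hhip was lower, and Gli1, too low for the test, was higher in every TAA mouse than in every control mouse.

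**Figure D4:**
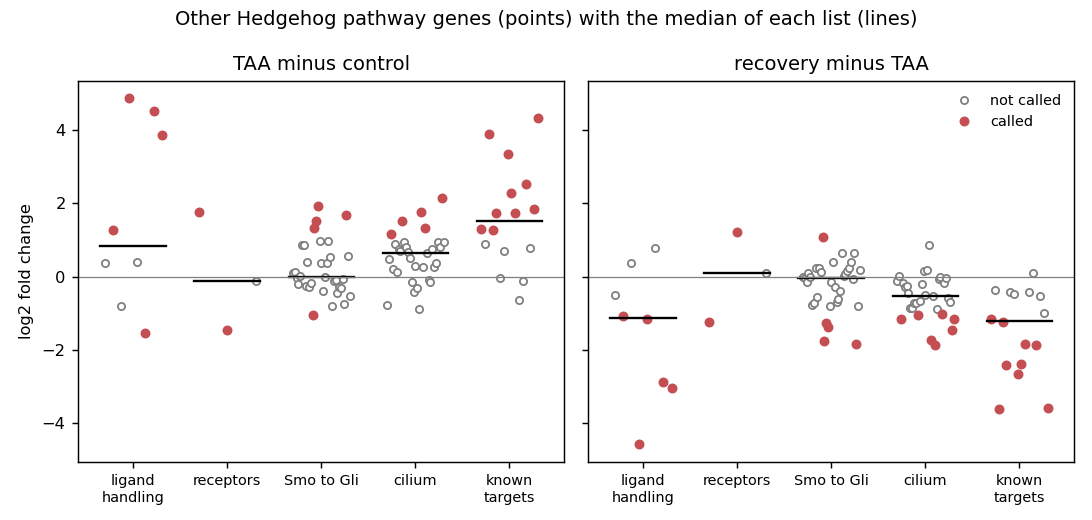
Log2 fold change (vertical axis) of the tested genes of 5 Hedgehog pathway lists, with 1 point per gene, filled where the gene was a DEG, and black lines at the list medians. Gpc3, Scube1 and Scube3 among the ligand-handling genes and Spp1 and Ccnd1 among the known targets have the highest points for TAA mice against control mice.

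Cell type markers moved between the same groups. For TAA mice against control mice, 8 of 9 biliary, 9 of 11 stellate cell and myofibroblast and 4 of 4 portal fibroblast markers were DEGs with higher expression. Of all tested genes, 17.0% were. The biliary marker Cftr (0.0193 in control, 0.832 in TAA and 0.0349 in recovery mice) passed the filter through its TAA values. It could only be counted as higher in TAA mice and as lower in recovery mice against TAA mice. Of the hepatocyte markers 4 of 7 were DEGs with lower expression, against 8.02%. In recovery mice against TAA mice 7, 8 and 2 of the first 3 lists were lower, against 14.3%, and 4 hepatocyte markers were higher, against 7.12%. Summed scaled FPKM of the biliary markers were 18.8 to 25.3 in control mice, 310 to 456 in TAA mice and 33.4 to 44.4 in recovery mice. Those of the stellate and myofibroblast markers were 40.1 to 52.6, 222 to 285 and 39.3 to 52.5, and those of the hepatocyte markers 43200 to 47000, 21500 to 28600 and 50600 to 55500. None of 7 endothelial markers and 1 of 5 macrophage markers was a DEG for TAA mice against control mice, against 25.0% of all tested genes. No marker of these lists was at 0 in all libraries of a group. In bulk liver RNA, fewer cells of a type and less RNA per cell cannot be told apart, and the part of these cell types in the changes of Ihh, Smo, Boc, Gli3 and Hhip was not tested.

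Other genes with the most similar patterns were found by the root mean square difference of log2 values over the 9 libraries, after each gene's control mean was taken off. For Hhip these were Vnn1 (0.286), Tlr5 (0.396) and Rdh16 (0.423), against a median of 1.871 over all candidates. For Ihh they were Gask1b (0.224), Mgst3 (0.239) and Twf2 (0.243), against 1.111, and for Boc they were Arhgef17 (0.216), Csf3r (0.218) and Ltf (0.224), against 1.189. Smo was nearest to Mapkapk3 (0.173), Mob3a (0.18) and Rbm46 (0.186), and Gli3 to Fam129a, Marveld3 and Msn (0.142 to 0.144). Ptch1 was nearest to Ghdc (0.113), Pknox1 (0.114) and Cnnm4 (0.117), with a median of 0.502.

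The size of the changes depended on how the FPKM were scaled and on the value added before taking logs. Hhip kept its direction and stayed a DEG for TAA mice against control mice under all 18 alternatives tried, with log2 fold changes of -3.736 to -1.25. Its rise in recovery mice against TAA mice was 0.708 (adjusted p = 0.000296) when 1 was added and then missed the required fold change. Ihh, Boc and Gli3 were below the required fold change in both directions when 1 was added (0.792, 0.605 and 0.384 for the rise) or quantile normalization was used (0.979, 0.985 and 0.375). Smo had -1.997 to -1.135 in recovery mice against TAA mice.

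**Figure D5:**
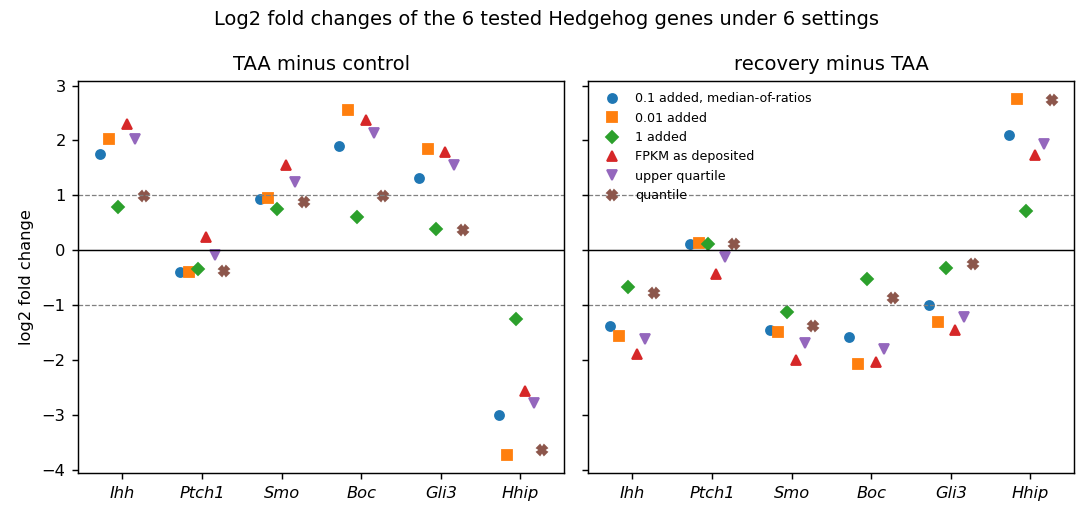
Log2 fold change (vertical axis) of the 6 tested Hedgehog genes with 3 values added before taking logs and with 4 scalings, with 1 symbol per setting and dashed lines at a fold change of 2. Ihh, Smo, Boc, Gli3 and Hhip keep their side of 0 under all 6 settings, and Ptch1 changes side with FPKM as deposited and, in recovery mice against TAA mice, with upper quartile scaling.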

How the data were processed

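Liver mRNA of 9 mice was sequenced as paired 150-base reads from libraries that do not mark strand. Per the labels and the methods of the study, the authors mapped reads to mm10 (GRCm38) with HISAT2 2.2.1, counted them with featureCounts 1.5.0-p3 and deposited FPKM values, 1 column per mouse. Whether the counting used strand is not given in the sources used here. Samples were grouped by their labels.

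Each library was divided by its median-of-ratios factor, taken over 14005 genes with no 0. The factors shifted the TAA to control difference by -0.638 and the recovery to TAA difference by 0.562 (log2). The test was limma 3.58.1 in R 4.3.3, with a variance trend, applied to log2(scaled FPKM + 0.1) of the 6 libraries compared. It covered the 14094 genes whose mean FPKM reached 0.1, and p-values were adjusted over them by Benjamini-Hochberg. Steps were tested on simulated data. Depth and fragment numbers were estimated from longest GENCODE M21 transcripts. The depth chosen was the one that made the largest share of low values whole within 0.05 fragments. That share was 43.1% to 49.2%, against 10% by chance at a fixed depth, so no count test between groups was used. Ratios between genes were compared with exact permutation tests. Intervals of fragment ratios are Clopper-Pearson (scipy 1.17.1), rest on these rounded estimates summed over the mice of a group and are only as good as the estimates. Python 3.11.15, pandas 2.3.3 and numpy 2.4.6 were used.

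The members and lists were chosen with earlier results of these data known. All 9 members are named, and from each list genes that were DEGs in at least 1 comparison, those with the largest changes in TAA mice first, together with ratio partners, markers and the 3 nearest genes per tested member. Dhh, Sufu and Arhgap9 are outside this rule and were chosen after their values were seen. Other values added, filters, scalings, fits and left-out mice were tried. The small RNA libraries were not analysed here.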

Additional observations from a re-analysis of the deposited data

How the results depend on the processing

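Of 330 alternative values of the members' fold changes, 300 kept their direction and their side of the criteria, 22 no longer passed, 5 newly passed and 3 reversed, all of Ptch1 (0.23 for TAA mice against control mice and -0.43 for recovery mice against TAA mice with FPKM as deposited, and -0.13 for the latter with upper quartile scaling). The 330 include recovery mice against control mice, where no member was a DEG and every value kept its direction and side. Members that were DEGs for TAA mice against control mice numbered 4, and 1 with 1 added, 1 with quantile normalization, 1 with the treat test of limma (fold change of 2) and 0 with a mean FPKM of at least 1, where only Ptch1 and Smo were tested. In recovery mice against TAA mice they numbered 5, and 1, 2, 1 and 1 under the same settings. Of all tested genes, 25.0% were DEGs for TAA mice against control mice, and 12.6%, 20.5%, 10.2% and 19.9% under these settings, and 21.4% in recovery mice against TAA mice, and 10.4%, 18.3%, 7.69% and 17.1%. The cause of these differences was not tested. Leaving out 1 mouse at a time gave 4 to 5 in both, and 0 in recovery mice against control mice. Of all tested genes called for TAA mice against control mice, 67.9% were higher, and 91.2% with FPKM as deposited, 81.9% with upper quartile scaling, 53.1% with quantile normalization, 53.4% with a mean FPKM of at least 1 and 50.0% with 1 added.

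Differences of log2 ratios moved with the value added, most of all where Gli1 and Gli2 lie below 0.1. For TAA mice against control mice, 0.01 in place of 0.1 gave 0.44 for Gli1/Gli3 (reversed from -0.76), 0.007 for Gli1/Pdgfrb (reversed from -1.65), -1.65 for Gli2/Pdgfrb, -0.43 for Gli3/Pdgfrb and 5.77 for Ihh/Hhip. With 1 added they were -0.32 for Gli1/Gli3, -0.36 for Gli2/Gli3, 2.04 for Ihh/Hhip, -1.75 for Gli2/Pdgfrb, -1.39 for Gli3/Pdgfrb, -1.02 for Smo/Pdgfrb and -2.12 for Ptch1/Pdgfrb. For recovery mice against TAA mice, 0.01 gave 0.56 for Gli1/Gli3, 0.81 for Gli1/Pdgfrb and -4.32 for Ihh/Hhip, and 1 gave 0.28 for Gli1/Gli3, 0.31 for Gli2/Gli3, 1.24 for Ptch1/Smo, -1.39 for Ihh/Hhip and 0.97 for Gli3/Pdgfrb. For recovery mice against control mice, 0.01 gave 1.0 for Gli1/Gli3, 0.82 for Gli1/Pdgfrb and -0.28 for Gli2/Pdgfrb, and 1 gave -0.87 for Smo/Pdgfrb. The construction of the ratio shows the cause for Gli1 and Gli2, and ratios with these genes are not read in the report.

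The labels do not say whether mice with the same number were paired, and no pairing was detected. Correlations of their deviations from the group means were -0.0705 to 0.1249 over 9 pairs, and a mouse was closest to its own number in 3 of 18 cases. With the replicate number as a block the members called were 4, 5 and 0, as without it, and over all genes recovery mice against control mice had 9 higher and 8 lower DEGs in place of 82 and 58. Depth limits Shh, Gli1 and Gli2, which had at most 18.7 estimated fragments in a library.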
